A study of Mus musculus with 12 samples.

Results

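The genes described here carry fatty acids into skeletal muscle, release them from stored triglyceride and burn them in mitochondria. They are 35 genes fixed by name, found through the gene names printed in the scanner files (Dci is the older name of Eci1), and they are covered by 53 of the 41174 gene probes on the array. All 35 had at least 1 probe that passed the filter on dim signal, 51 of the 53 probes did so, and the fit from which p values were taken held 16530 genes and unnamed probes in all. RNA came from quadriceps muscle of 13-week-old male C57BL/6J mice, with no genetic change named in the labels for either group. The exercised group was 6 mice that had run on a motorized treadmill for 4 weeks and were sampled 3 hours after their last bout, and the sedentary group was 6 mice kept as controls. Each mouse was hybridised to 1 one-colour array, and the arrays are named here by the set (s) and mouse (m) numbers of their titles. What the 2 sets were is not stated. A trained mouse without a recent bout was not among the groups, so the 4 weeks of training and the last bout cannot be told apart.

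Muscle takes up fatty acids that lipoprotein lipase frees from circulating lipoproteins, or frees its own from lipid droplets. Acyl-CoA synthetases trap them as thioesters, the carnitine shuttle moves the acyl groups into the mitochondrion, and the beta-oxidation spiral shortens them while passing electrons through the electron transfer flavoprotein to the respiratory chain. Many of these genes are known targets of the fatty acid receptors PPARalpha and PPARdelta, which bind DNA with a retinoid X receptor, and of their coactivator PGC-1alpha, encoded by Ppargc1a.

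Of the 35 genes, Ppara alone rose in exercised muscle and none fell. It was 2.24-fold higher (95% interval 1.75 to 2.87, n = 6 and 6). All members but Ppara, 34 of the 35, differed by less than 1.5-fold, as did 15810 of all 16530 features. For 28 of the 35 the whole 95% interval lay inside 1.5-fold in either direction, as it did for 12567 of all 16530. The median log2 difference (exercised minus sedentary) was 0.02 over the members and -0.03 over all features tested, with 23 members above 0 and 12 below. The median size of the difference, sign aside, was 0.09 on the log2 scale for members and 0.11 for all.

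Calls are those of limma's moderated test at a Benjamini-Hochberg adjusted p below 0.05, adjusted over all 16530. In that fit 3.64% of all features were called, 1.8% as higher and 1.84% as lower, so that 1 called member of 35 (2.86%) is near the background. Groups did not overlap in 3.01% of all features and in 1 member. At an unadjusted p below 0.05 stood 4 members, namely Ppara and Acadvl as higher and Mlycd and Acot2 as lower. That is 11.4% of the members, against 16.2% of all features (2681). The p values measure the spread between mice.

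**Figure D1:**
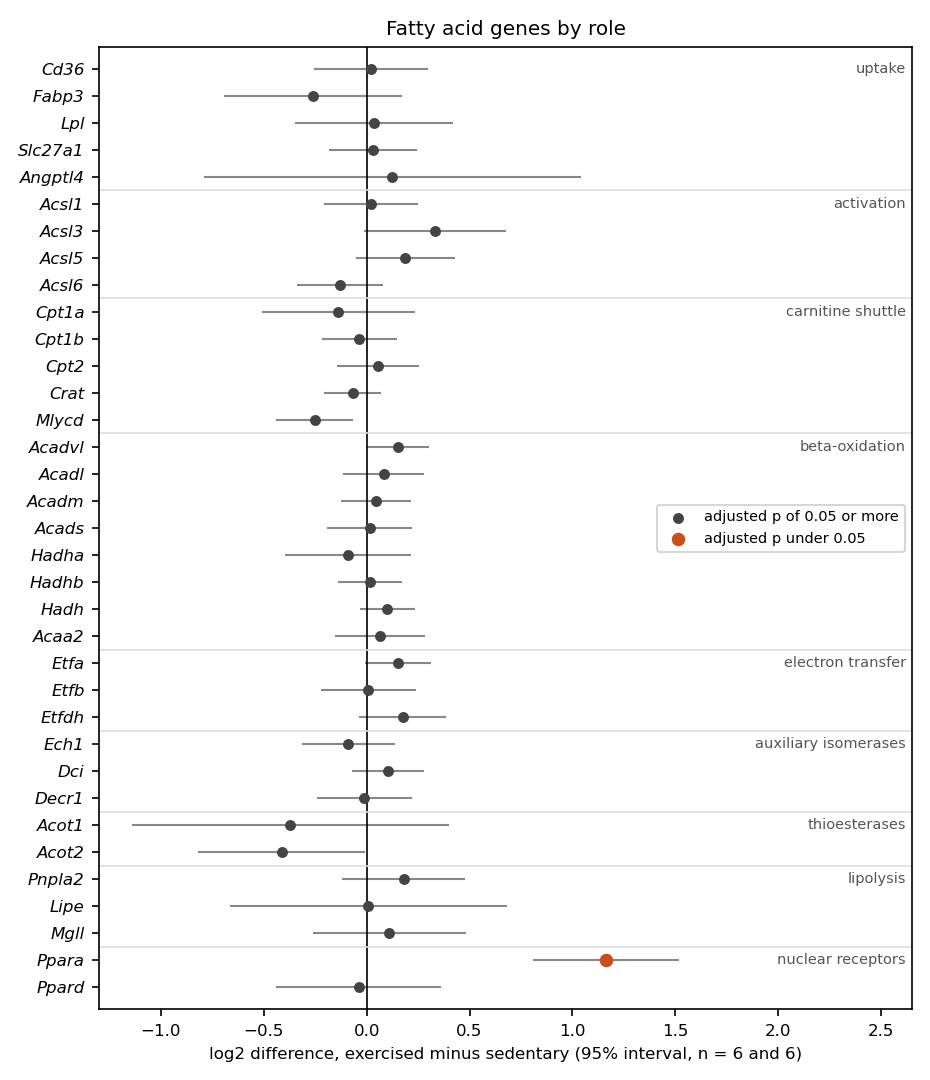
Log2 difference between exercised and sedentary muscle (horizontal axis) for the 35 genes, ordered by role; points are differences of group means, bars their 95% intervals from limma, n = 6 and 6. Only the Ppara point, at 1.16, is past the threshold, and the widest intervals belong to Angptl4, Acot1 and Lipe.

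The nuclear receptor Ppara encodes PPARalpha, the lipid-activated receptor that switches on genes of fatty acid oxidation. Levels are log2 signals in which 0 is the 75th percentile of that array. In exercised mice the Ppara level was 1.09 in s1m1, 0.78 in s1m5, 1.39 in s2m1, 0.62 in s2m3, 0.89 in s2m4 and 0.90 in s2m5. In sedentary mice it was 0.11 in s1m1, -0.29 in s1m5, -0.78 in s1m6, -0.25 in s2m2, -0.27 in s2m4 and 0.17 in s2m5. Every exercised mouse thus lay above every sedentary one. The mice nearest to each other were exercised s2m3 and sedentary s2m5. The log2 difference was 1.16 (SE 0.16, limma adjusted p = 0.00211).

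The arrays lay on 3 slides. Slides 1, 2 and 3 held 1, 3 and 2 exercised and 3, 1 and 2 sedentary arrays. With slide as a block the log2 difference of Ppara was 1.14 (limma adjusted p = 0.0142). Within slides 1, 2 and 3 it was 1.19, 1.26 and 1.02. Slides 1 and 2 leave 1 mouse in a group, so that only the size of the difference is given for them. On slide 3, with 2 mice of each group, neither Ppara (limma adjusted p = 0.248) nor any other feature was called. Leaving out each array in turn gave Ppara log2 differences of 1.05 to 1.24, with limma adjusted p from 0.0019 to 0.0068. With a block on the 4 set and mouse numbers found in both groups, which uses 8 arrays, Ppara was at 0.99. Its call was lost there (limma adjusted p = 0.053), and 29 of all features were called. With normexp background correction the Ppara difference was 0.66 and the call was lost (limma adjusted p = 1), and 0 of all features were called. On 4 arrays normexp left the 5th percentile of log2 signal at 9.48 to 10.6, against 5.79 to 5.87 on the other 8. With the local background of each array limited at its 99th percentile, normexp gave 0.94 for Ppara (limma adjusted p = 0.000727). Its single probe lies at chr15:85631955-85632014 on mm9 per the array annotation, and whether that stretch is exonic was not analysed here.

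Markers of other cell types moved with the groups to differing degrees, and their part in the Ppara difference was not tested beyond the following fits. Of 10 endothelial markers measured, 2 lay above 0 and 8 below. An unadjusted p below 0.05 was found for 6 of them, against 16.2% of all features. Among the 6 was Ptprb on the higher side at 0.37 (limma adjusted p = 0.111). Past the threshold were Egfl7 at -0.57 and Cldn5 at -0.87 (limma adjusted p = 0.0271 for each), and both calls were lost with slide as a block (adjusted p = 0.0749 and 0.0709). The list score, which is the mean deviation of its genes from their 12-array means, ran from -0.25 to -0.0029 in exercised and from -0.09 to 0.27 in sedentary mice. With that score as a covariate, the log2 difference of Ppara was 1.04 and its call was lost (limma adjusted p = 0.0825). Only sedentary s2m2 lay within the exercised range of the score, so this fit can hardly tell the score from the group. Calls over all features fell from 601 to 161 in it. None of the 5 measured brown adipocyte markers passed (2, Ucp1 and Cidea, had an unadjusted p below 0.05). Log2 differences were 4.35 for Ucp1, 1.79 for Cidea, 0.18 for Dio2, -0.10 for Cox8b and -0.17 for Zic1, and the list score ran from -1.02 to 1.56 in exercised and from -1.32 to 0.73 in sedentary mice. Ucp1, the defining brown fat gene, was above background on 5 of 6 exercised and 2 of 6 sedentary arrays. Its level ran from -6.45 to 3.25 in exercised and from -7.15 to -0.55 in sedentary mice, the widest range of the 5 markers. The brown adipocyte score thus follows Ucp1 most, including on arrays where Ucp1 was not above background. With this score as a covariate Ppara was at 0.99 (limma adjusted p = 0.0248), and with the white adipocyte score at 1.12 (adjusted p = 0.00217). In whole muscle, fewer cells of a type and less RNA per cell cannot be told apart.

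Ppard encodes PPARdelta, the PPAR that is usually the more abundant one in muscle. Its probe was well above background on only 3 of 6 arrays in each group, and its level ran from -5.19 to -4.04 (median -4.12) in exercised and from -4.52 to -4.08 (median -4.35) in sedentary mice. Exercised s1m1, s2m1 and s2m3 lay above all sedentary mice, and exercised s1m5 and s2m5 below all of them. Only exercised s2m4, at -4.16, lay within the sedentary range. The log2 difference was -0.04 (95% interval -0.44 to 0.36), or 0.97-fold with an interval from 0.74-fold to 1.28-fold.

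The promoters of the receptor and of 2 members with a loose match to its binding sequence are shown, since Ppara was the member that moved. Whether PPARs bind there was not tested. Sequences are the 250 bases before the start of the RefSeq entry on GRCm38.p6, 5' to 3' along the gene. PPARs with their partner bind a direct repeat of AGGTCA with 1 base between (DR1, AGGTCANAGGTCA), and capitals mark the stretch that matches it, here on the opposite strand, with 2 mismatches. The Ppara promoter has no such stretch and is all in lower case.
Ppara, chr15:85735526-85735775, plus strand: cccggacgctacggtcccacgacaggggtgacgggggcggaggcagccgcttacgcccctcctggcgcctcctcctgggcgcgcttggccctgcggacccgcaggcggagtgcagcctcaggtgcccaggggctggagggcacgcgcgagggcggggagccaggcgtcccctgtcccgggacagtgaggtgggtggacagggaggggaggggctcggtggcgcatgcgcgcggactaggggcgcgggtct
Cd36, chr5:17835897-17836146, minus strand: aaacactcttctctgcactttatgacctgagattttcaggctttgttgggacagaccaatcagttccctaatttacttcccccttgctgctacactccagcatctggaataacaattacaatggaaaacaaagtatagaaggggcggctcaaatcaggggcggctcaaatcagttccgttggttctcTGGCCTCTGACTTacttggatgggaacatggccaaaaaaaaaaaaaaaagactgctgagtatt
Etfa, chr9:55512244-55512493, minus strand: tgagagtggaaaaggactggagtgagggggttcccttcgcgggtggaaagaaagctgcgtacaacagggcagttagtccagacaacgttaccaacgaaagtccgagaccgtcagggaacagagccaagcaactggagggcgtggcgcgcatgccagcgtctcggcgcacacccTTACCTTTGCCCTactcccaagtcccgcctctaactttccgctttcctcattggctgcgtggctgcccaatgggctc

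RefSeq promoters were found for 29 of the 35 members, in 36 entries. Searched on both strands, DR1 with at most 2 mismatches was present in 2 of the 36 (5.56%) and in 3.24% of all 32851 promoters of that length. With at most 1 mismatch it was in 0 of the 36 and in 0.484% of all. The exact site of the estrogen-related receptors, TCAAGGTCA, which contains the same AGGTCA, was in 1 of the 36 (Acsl6) and in 0.387% of all. Hadha and Hadhb, which encode both subunits of the mitochondrial trifunctional protein, start head to head, and their windows share 228 bases. Neither Cd36 nor Etfa passed the test, at log2 differences of 0.02 and 0.15.

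Among the 5 genes of uptake, none passed (0 at an unadjusted p below 0.05) and the median log2 difference was 0.03. Fabp3, the fatty acid binding protein of heart and muscle, ran from 7.65 to 8.54 (median 8.05) in exercised and from 7.99 to 9.04 (median 8.24) in sedentary mice. The highest value was that of sedentary s1m1, and the groups overlapped. Its log2 difference was -0.26 (SE 0.20, limma adjusted p = 0.589) and became -0.12 without that array. Slc27a1, a fatty acid transport protein, ran from 2.01 to 2.38 (median 2.09) and from 1.85 to 2.33 (median 2.14), at 0.03 (SE 0.10, limma adjusted p = 0.923).

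Lpl, the lipase of the capillary wall, was at 0.04 (95% interval -0.35 to 0.42). Cd36, the membrane fatty acid translocase, was at 0.02 with 1 probe and at -0.15 with its other probe, neither past the threshold. Angptl4, an inhibitor of lipoprotein lipase and a known PPAR target, was the most variable member, with a within-group SD of 0.81. It spanned 2.28 to 4.17 in exercised and 2.06 to 4.49 in sedentary mice, so that its log2 difference of 0.12 has an interval from -0.79 to 1.04, which is 0.58-fold to 2.06-fold.

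Of the 4 long-chain acyl-CoA synthetases none passed (0 at an unadjusted p below 0.05), and 3 lay above 0. Acsl3, an isoform of the endoplasmic reticulum and lipid droplets, ran from 1.54 to 2.40 (median 1.80) in exercised and from 1.23 to 1.87 (median 1.55) in sedentary mice. The groups overlapped, and the log2 difference of 0.33 (SE 0.16) had a limma adjusted p of 0.331. Acsl5, which directs fatty acids to mitochondria and to storage in several tissues, ran from -0.34 to 0.07 (median -0.20) against -0.56 to 0.06 (median -0.43), at 0.19 (SE 0.11, limma adjusted p = 0.459). In both groups a single mouse reached the top of the Acsl5 range, exercised s2m1 and sedentary s1m1. Acsl1, the main isoform of muscle, was at 0.02, and its other probes were each at 0.11. The brain-enriched Acsl6 was at -0.13, and its other probes were at -0.22, 0.02 and -0.03. None of these other probes passed.

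The carnitine shuttle had 4 of 5 genes below 0, with a median of -0.07, and none passed (1 at an unadjusted p below 0.05). Mlycd, malonyl-CoA decarboxylase, removes the metabolite that blocks carnitine palmitoyltransferase 1. Its level was 5.92 in s1m1, 5.81 in s1m5, 5.62 in s2m1, 5.57 in s2m3, 5.85 in s2m4 and 5.77 in s2m5 of the exercised mice. In sedentary mice it was 6.24 in s1m1, 5.83 in s1m5, 5.97 in s1m6, 6.02 in s2m2, 5.91 in s2m4 and 6.10 in s2m5. The groups overlapped only through exercised s1m1 and s2m4 and sedentary s1m5 and s2m4. The log2 difference of Mlycd was -0.25 (95% interval -0.44 to -0.07, limma adjusted p = 0.144), was -0.26, -0.15 and -0.21 within the slides, and did not pass.

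Crat, carnitine acetyltransferase, had one of the smallest spreads (within-group SD 0.09), from 5.52 to 5.82 (median 5.67) in exercised and from 5.64 to 5.83 (median 5.74) in sedentary mice. Its log2 difference was -0.07 (SE 0.06, limma adjusted p = 0.672). Cpt1b, the muscle form of the entry enzyme of the shuttle, was at -0.03 (95% interval -0.22 to 0.15), and its other probe at -0.05. Cpt1a, the liver form, was at -0.14 and Cpt2, the inner membrane enzyme, at 0.06.

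Beta-oxidation itself showed 7 of 8 genes above 0 with a median of 0.06, and none passed (1 at an unadjusted p below 0.05). Acadvl, very long-chain acyl-CoA dehydrogenase, which takes the first step on long chains, was at 7.90 in s1m1, 7.90 in s1m5, 7.79 in s2m1, 7.65 in s2m3, 7.61 in s2m4 and 7.79 in s2m5 of the exercised mice. In sedentary mice it was at 7.68 in s1m1, 7.59 in s1m5, 7.50 in s1m6, 7.59 in s2m2, 7.64 in s2m4 and 7.72 in s2m5. Of the 6 exercised mice 4 lay above all sedentary ones. The log2 difference was 0.15 (95% interval 0.0020 to 0.30, limma adjusted p = 0.299).

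Hadh, the short-chain hydroxyacyl-CoA dehydrogenase, had the smallest spread of all members, with a within-group SD of 0.08. It ran from 4.63 to 4.80 (median 4.73) in exercised and from 4.55 to 4.81 (median 4.60) in sedentary mice. Sedentary s1m1 held the highest of the 12 values, and the other 5 sedentary mice lay between 4.55 and 4.61, below all exercised mice. Its log2 difference was 0.10 (SE 0.06, limma adjusted p = 0.480), and 0.14 (adjusted p = 0.232) without sedentary s1m1.

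The other dehydrogenases for long, medium and short chains, Acadl, Acadm and Acads, were at 0.08, 0.05 and 0.01. The trifunctional protein genes were at -0.09 (Hadha) and 0.02 (Hadhb), and the thiolase gene Acaa2 was at 0.07. With the exception of Hadha (95% interval -0.40 to 0.22), the intervals of these 6 genes stayed within 0.3 of 0 on the log2 scale.

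Electron transfer from the dehydrogenases uses the 2 subunits of the flavoprotein, Etfa and Etfb, and the oxidoreductase Etfdh. All 3 lay above 0, and none passed (0 at an unadjusted p below 0.05). Etfa ran from 4.99 to 5.31 (median 5.20) in exercised and from 4.91 to 5.21 (median 4.97) in sedentary mice, with a log2 difference of 0.15 (SE 0.07, limma adjusted p = 0.338). Exercised s1m1 was the low mouse of its group and sedentary s1m1 the high one. Etfdh ran from 4.89 to 5.13 (median 5.03) against 4.44 to 5.09 (median 4.88), at 0.17 (SE 0.10, limma adjusted p = 0.419), and its other probe gave 0.16. Etfb was at 0.01.

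The auxiliary enzymes that process unsaturated fatty acids gave 1 gene above 0 and 2 below, with none past the threshold (0 at an unadjusted p below 0.05). Eci1, named Dci on the array, shifts double bonds in the mitochondrion. It ran from 5.28 to 5.66 (median 5.58) in exercised and from 5.27 to 5.58 (median 5.41) in sedentary mice, at 0.10 (SE 0.08, limma adjusted p = 0.602). Ech1, a dienoyl-CoA isomerase, ran from 4.35 to 4.72 (median 4.53) against 4.29 to 4.92 (median 4.58), at -0.09 (SE 0.10, limma adjusted p = 0.748). Decr1, the dienoyl-CoA reductase, was at -0.01.

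Both acyl-CoA thioesterases, which split the thioester again and are known PPARalpha targets, lay below 0 without passing (1 at an unadjusted p below 0.05). Acot2, the mitochondrial form, was at -1.35 in s1m1, -1.26 in s1m5, -1.06 in s2m1, -0.97 in s2m3, -0.57 in s2m4 and -0.69 in s2m5 of the exercised mice. In sedentary mice it was at 0.14 in s1m1, -0.77 in s1m5, -0.41 in s1m6, -0.97 in s2m2, -0.65 in s2m4 and -0.76 in s2m5. Sedentary s1m1 stood highest, while exercised s2m4 and s2m5 lay within the sedentary range. The log2 difference was -0.41 (SE 0.19, limma adjusted p = 0.296) and -0.27 without sedentary s1m1.

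Acot1, the cytosolic form, ran from -1.71 to -0.84 (median -1.55) in exercised and from -1.81 to 0.61 (median -1.33) in sedentary mice. The top value was again that of sedentary s1m1, and the other 5 sedentary mice lay at or below -0.68. Its log2 difference of -0.37 (SE 0.36, limma adjusted p = 0.680) became -0.05 without that array. Within slide 3, which holds sedentary s1m1, Acot1 was at -1.23 and Acot2 at -1.05, whereas on slides 1 and 2 Acot1 was at 0.15 and 0.50 and Acot2 at 0.02 and -0.09. These neighbours on chromosome 12 are close copies, so that cross-hybridisation between their probes, which was not tested, makes both values uncertain.

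The 3 lipases of stored fat showed log2 differences of 0.18, 0.01 and 0.11, and none passed (0 at an unadjusted p below 0.05). Pnpla2, adipose triglyceride lipase, takes the first fatty acid off triglyceride. It ran from 5.08 to 5.62 (median 5.22) in exercised and from 4.83 to 5.57 (median 5.07) in sedentary mice, at 0.18 (SE 0.14, limma adjusted p = 0.589), with 0.19 from its other probe. Mgll, monoacylglycerol lipase, ran from 3.13 to 4.03 (median 3.66) against 3.24 to 4.13 (median 3.40), at 0.11 (SE 0.17, limma adjusted p = 0.819). The groups overlapped in both genes.

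Lipe, hormone-sensitive lipase, varied widely among mice of the same group. It was at 1.31 in s1m1, 0.33 in s1m5, 1.00 in s2m1, -0.25 in s2m3, 0.02 in s2m4 and 0.78 in s2m5 of the exercised mice. In sedentary mice it was at 1.00 in s1m1, 0.42 in s1m5, 0.18 in s1m6, 1.48 in s2m2, 0.11 in s2m4 and -0.04 in s2m5. High and low mice occurred in both groups, and the log2 difference was 0.01 (95% interval -0.67 to 0.68). The other Lipe probe gave 0.26 and did not pass (limma adjusted p = 0.794 with every probe tested).

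The level of Lipe followed the white adipocyte markers, a list of 12 genes that holds none of the members and of which 10 were measured. None of the 10 passed (0 at an unadjusted p below 0.05), and the list score ran from -0.72 to 0.93 in exercised and from -0.80 to 0.86 in sedentary mice. Adipoq, the defining marker, was above background in all 12 mice. Across the 12 arrays Pearson's r between the score and Lipe was 0.97 (permutation p = 1e-05, the smallest that the permutations can give, adjusted p = 7e-04) and Spearman's rho was 0.93 (permutation p = 5e-05, adjusted p = 0.0035). The r was 0.97 without the 2 arrays farthest from the median score and 0.98 within slide and group.

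Angptl4 followed the same score, with r = 0.85 (permutation p = 0.00037, adjusted p = 0.0130), rho = 0.84 (permutation p = 0.00114, adjusted p = 0.0399), and r = 0.82 without the 2 farthest arrays and 0.85 within slide and group. Mgll did not pass the adjustment (r = 0.78, permutation p = 0.00321, adjusted p = 0.0749; rho = 0.73, permutation p = 0.00977, adjusted p = 0.171). P values were adjusted over 70 relations, the 35 members with the white adipocyte and the slow-fibre scores, and 2 passed by r. Behind Mgll by r with the white adipocyte score came Etfb at 0.74 (permutation p = 0.00813, adjusted p = 0.142). Cd36 (r = 0.66) and Acaa2 (r = 0.64) followed, and none of them passed. The lowest r with that score were -0.36 for Acsl3 and -0.31 for Cpt1b. No member passed with the slow-fibre score. With the white adipocyte score as a covariate Lipe was at -0.18 (limma adjusted p = 0.248) and Angptl4 at -0.10 (adjusted p = 0.885).

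**Figure D2:**
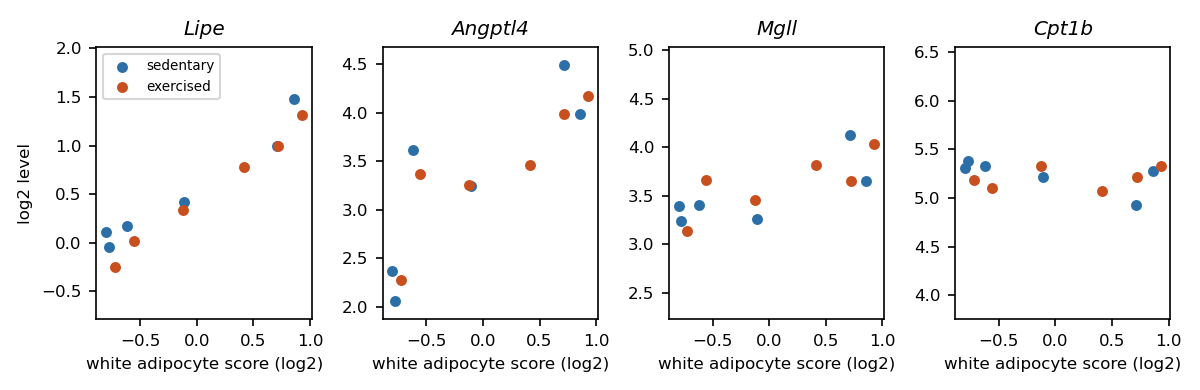
Log2 level of Lipe, Angptl4, Mgll and, for comparison, Cpt1b (vertical axes, equal spans) against the white adipocyte score of the same array (horizontal axis, log2); each point is 1 mouse, blue sedentary and orange exercised. Lipe rises with the score in mice of both groups (r = 0.97) and Cpt1b does not (r = -0.31). Among the members only Acsl3 had a lower r than Cpt1b, so Cpt1b does not stand for the rest.

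The adipocyte scores also bear on the direction of the small differences. With the white adipocyte score as a covariate 17 members lay above 0 and 18 below, with a median log2 difference of -0.01, and with that of brown adipocytes 13 lay above 0 and 22 below, with a median of -0.08. With the endothelial score 26 lay above 0 and the median was 0.13. The majority of members above 0 therefore depended on the covariate chosen, and no direction is given for the group as a whole.

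Single mice stood apart from the rest in many members. Sedentary s1m1 was the highest of the 12 arrays for 17 of the 35 members (48.6%), while it was highest for 10.1% of all features. Its members lay a median of 0.22 above their 12-array means on the log2 scale, and those of exercised s2m3 a median of 0.16 below. On exercised s2m3 9 of the 35 members were at their lowest, as were 14.5% of all features. Without sedentary s1m1, 25 members lay above 0, the median log2 difference was 0.09 and 1 member, Ppara, was called by limma. In that fit 6 members (17.1%) and 16.9% of all features had an unadjusted p below 0.05. Without exercised s2m3 the median was 0.08 and again 1 member was called.

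**Figure D3:**
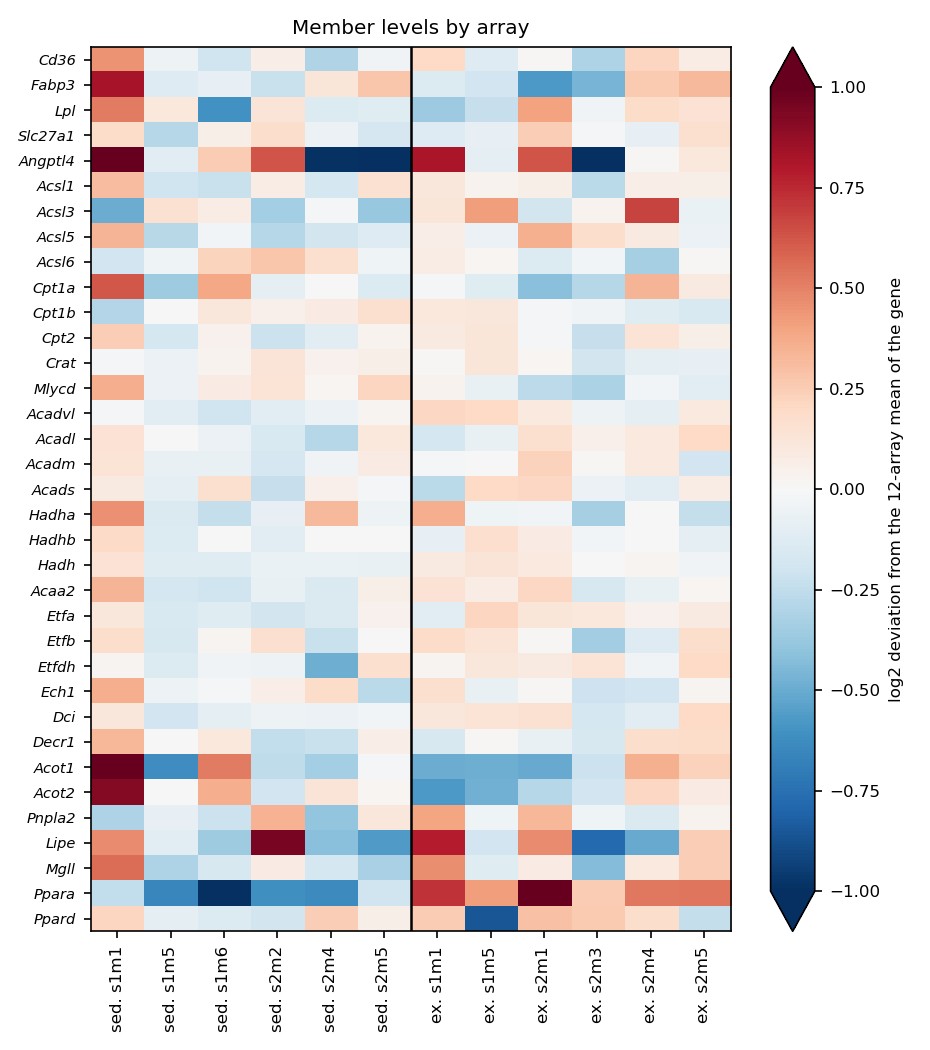
Deviation of each member (rows, by role) from its 12-array mean in each mouse (columns, 6 sedentary then 6 exercised); red is higher, blue lower, and the colour scale ends at 1 in either direction. The column of sedentary s1m1 is red for most members, and Ppara is the row that splits at the line between the groups.

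Regulators of the same genes were taken from a list of 23, of which 22 were measured. Of the 22, 3 rose and none fell, and 5 had an unadjusted p below 0.05. Over all features 1.8% were called as higher and 16.2% had an unadjusted p below 0.05. The median log2 difference of the list was -0.02. Ppargc1a, the coactivator of both PPARs and the estrogen-related receptors, ran from 3.14 to 4.37 (median 3.46) in exercised and from 1.41 to 2.02 (median 1.73) in sedentary mice. Foxo1, a transcription factor of the fasting response, ran from 2.87 to 3.61 (median 3.49) against 1.44 to 1.69 (median 1.56), and was 3.53-fold higher (limma adjusted p = 2.82e-05). Nrip1, a corepressor of nuclear receptors that restrains oxidative genes in muscle, ran from 1.75 to 2.39 (median 2.06) against 1.14 to 1.51 (median 1.23), and was 1.67-fold higher (limma adjusted p = 0.00348). The groups did not overlap for any of these 3. Klf15, a factor of lipid use in muscle, was at 0.69 and missed the threshold (limma adjusted p = 0.0576), as did Ppargc1b at -0.31 (adjusted p = 0.193). The PPAR partners Rxra and Rxrg were at -0.07 and -0.05, and the estrogen-related receptor Esrra was at 0.07.

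**Figure D4:**
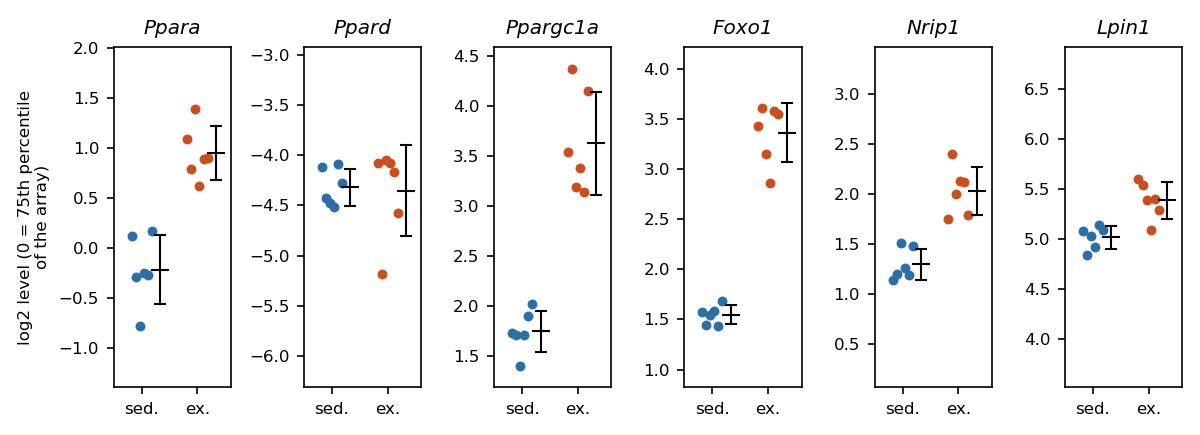
Log2 level (vertical axes, equal spans; 0 is the array's 75th percentile) of the PPAR genes Ppara and Ppard, of 3 regulators and of Lpin1 in 6 sedentary (blue) and 6 exercised (orange) mice; black bars are mean and SD. Groups do not overlap for Ppara, Ppargc1a, Foxo1 and Nrip1, and overlap for Ppard and Lpin1.

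Of 18 genes of lipid droplets, storage and lipase regulation, 1 rose and none fell (4 at an unadjusted p below 0.05). The shares over all features were 1.8% called as higher and 16.2% at an unadjusted p below 0.05. The median log2 difference of the list was 0.14. The gene that rose was Lpin1, which encodes a phosphatidate phosphatase that also coactivates PPARalpha. It ran from 5.09 to 5.60 (median 5.40) in exercised and from 4.84 to 5.14 (median 5.06) in sedentary mice, and was 1.29-fold higher (limma adjusted p = 0.0414, and 0.192 with brown adipocyte content as a covariate). Gpam, which starts glycerolipid synthesis, was at -0.33 and did not pass (limma adjusted p = 0.0521), although its groups did not overlap. The droplet coat genes Plin2, Plin3 and Plin4 were at 0.48, 0.46 and 0.49 and did not pass (limma adjusted p = 0.353, 0.135 and 0.1001). Plin4 did pass once slide was a block (adjusted p = 0.0231), and the other two did not. In the fit with the brown adipocyte covariate the 3 genes were at 0.03, 0.51 and 0.25.

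The other lists of the pathway held no called gene in limma. Of 10 measured genes of uptake, carnitine transport and activation outside the 35, 1 had an unadjusted p below 0.05, namely the carnitine transporter Slc22a5 at -0.14, and Acaca, acetyl-CoA carboxylase 1, was at 0.76 with an interval from -0.10 to 1.62. Of 15 further mitochondrial genes 0 had an unadjusted p below 0.05, and the smallest p values were those of Etfrf1 at 0.15 and Acot13 at 0.12. Of 16 peroxisomal genes 1 did so, Scp2 at 0.17, followed by Phyh at 0.15. The medians of these 3 lists were 0.08, 0.04 and -0.02. Pdk4 and Ucp3, known PPAR targets of muscle within the list of regulators, were at -0.29 (95% interval -0.88 to 0.30) and 0.31 (-0.15 to 0.77) and did not pass.

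Across the arrays 21724 to 25246 probes were well above background. None of the 12 skeletal muscle markers passed (2 at an unadjusted p below 0.05), and all 12 were measured. None passed among the markers of slow fibres, macrophages, tendon, red cells and nerve either. At an unadjusted p below 0.05 were 0 of 9, 0 of 8, 7 of 8, 0 of 4 and 5 of 8 measured genes. The share over all features was 16.2%. The tendon score ran from -0.40 to 1.17 in exercised and from -1.59 to 0.07 in sedentary mice. The difference between exercised and sedentary mice was also compared between the title sets. By the limma interaction term 0 of the 35 members and 0 of all 16530 features were called. At an unadjusted p below 0.05 were 3 members (Acot2, Acadl and Cpt1b) and 1445 features. Set 1 held 2 exercised and 3 sedentary mice, and set 2 held 4 and 3. With so few mice this test can miss a difference between the sets.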

How the data were processed

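The deposited scanner files hold spot intensity on a linear scale, background-subtracted and detrended by the authors within each array, with Agilent Feature Extraction 10.5.1.1 per the file headers (the submitters' processing notes name 9.1). No scaling between arrays had been applied. A deposited table of values lay within 0.1% of that signal for 100% of 40929 single-spot probes and served as an alternative.

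Control spots and outlier spots were left out, log2 signals of a probe's spots were averaged, and the 75th percentile of the array was taken off. Probes well above background on at least 6 of 12 arrays were kept, and a gene took the values of its brightest kept probe by mean log2 signal. Probe names came from accessions matched to the RefSeq table (26974 of 41174 probes) or else from the file. Positions are on mm9 per the array annotation. Groups were compared in limma 3.58.1 (under R 4.3.3; files were read with data.table, version 1.17.8), with no block, with p values adjusted over all 16530 features. The pipeline was tested on simulated data. The number of arrays limits the precision. Correlations used 100000 permutations.

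The members and lists were chosen with earlier results of these data known. Given in full were members past the threshold and the 2 smallest p of each role; of other lists, genes past the threshold and the 2 smallest p. Of the slow-fibre, tendon and other marker lists only counts and scores are given. The values of Lipe by mouse, Klf15, Ppargc1b, the Plin, Rxr and Esrra genes, Pdk4, Ucp3, the brown adipocyte genes, Ptprb and Adipoq were picked after their values were seen. Alternatives were slide, title set or shared number as a block, within-slide fits, quantile or median scaling, normexp, the deposited table, other filters, probe rules and variance models, an adjusted p below 0.10, marker scores as covariates and leaving out each array. The 4 set and mouse numbers that occur in both groups do not pair the mice by the labels. Brown adipocyte and endothelial covariates and a limited normexp were added after the data were seen.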

Additional observations from a re-analysis of the deposited data

Results flagged for a closer look

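Each member was checked in both groups for a mouse far from the other 5, by Dixon's test at the 95% level, in 70 groups of 6. It marked 3 of the 70, which is no more than the roughly 1 in 20 that chance marks. Acsl1 was at a log2 level of 5.93 in exercised s2m3, against 6.23 to 6.31 in the other exercised mice. Cpt1b was at 4.93 in sedentary s1m1, against 5.22 to 5.38 in the other sedentary mice. Hadh was at 4.81 in sedentary s1m1, against 4.55 to 4.61 in the others. Sedentary s1m1 was thus low for Cpt1b and high for Hadh, while it was the highest of the 12 arrays for 17 of the 35 members. Without these arrays the log2 differences were 0.08 for Acsl1, -0.10 for Cpt1b and 0.14 for Hadh (limma adjusted p = 0.792, 0.531 and 0.232), so no call changed. Whether anything set these mice apart was not tested.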

How the results depend on the processing

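Ppara lay higher in exercised mice under all 31 alternatives outside single slides, from 0.66 to 1.24 on the log2 scale, and was called by limma in 28 of them. The call was lost with normexp background correction (0.66, limma adjusted p = 1) and with the replicate block (0.99, limma adjusted p = 0.053). It was also lost with the endothelial score as a covariate (1.04, limma adjusted p = 0.0825), so that the count of called members was 0 in each of these. Within slide 3 the count was also 0, with Ppara at a limma adjusted p of 0.248. Slides 1 and 2 leave 1 mouse in a group, so no calls are counted there. At an unadjusted p below 0.05 stood 1 member with normexp, 2 with the replicate block, 4 with the endothelial score and 3 within slide 3. Over all features 107, 1813, 2252 and 2150 did so. No other member gained a call under any of these alternatives. The sign of the 34 uncalled members changed in 122 of 1155 cases, and 7 of the 34 kept it throughout. These 1155 cases also count the fits within each slide, including slides 1 and 2 with 1 mouse in a group.

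The count over all features was 601, and became 350 with slide as a block, 316 with no filter on dim probes, 321 with the brown adipocyte score, 161 with the endothelial score and 1012 at an adjusted p below 0.10. It was 0 within slide 3 (2150 at an unadjusted p below 0.05) and 0 with normexp (107 at an unadjusted p below 0.05). After normexp the 5th percentile of log2 signal was 9.48 to 10.6 on 4 arrays against 5.79 to 5.87 on the other 8. The lowest probe signal net of local background was -264897 to -67548 on those 4 arrays and -2.39 to 0.75 on the other 8. With the local background limited, normexp gave 453 and Ppara at 0.94 (adjusted p = 0.000727). Leaving out 1 array gave 418 to 572, with 1 member called each time. The set interaction then gave 0 to 16 features, 2 without exercised s1m1 and 16 without exercised s1m5.

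The 4 set and mouse numbers found in both groups gave correlations of deviations of 0.15, -0.19, 0.12 and 0.28. Of the 8 mice, 4 correlated best with their own number among 4 candidates. With so few numbers this check cannot decide whether they are pairs. The numbers were not taken as pairs because the labels state no pairing. The replicate block on them, which uses 8 arrays, gave 29 called features.

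The spread between mice limits Angptl4, Acot1 and Lipe most, with within-group SDs of 0.81, 0.68 and 0.60, and dim signal limits Ppard.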
